A study of Mus musculus with 2 samples.

Results

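POU5F1, or OCT4, is a POU-domain transcription factor of pluripotent cells. Its binding was examined around Trp53 and 5 genes of its pathway, Mdm2, Mdm4, Cdkn1a, Ccng1 and Trp53inp1. These are 6 of the 22225 protein-coding genes annotated on the mm9 genome build. Every deposited peak whose centre lay within 50 kb of an annotated transcript start of 1 of these genes was taken, in 3 peak lists on mm9 and in 2 thresholded lists on mm10. That rule found 6 of the 5515 peaks of the mm9 list of the whole series. The data were chromatin immunoprecipitation followed by sequencing (ChIP-seq) with an antibody to POU5F1 in E14TG2a.4, a male embryonic stem cell line of mouse strain 129/Ola. The samples form 1 group of 2 biological replicates, which the labels assign to separate biosamples of the same donor, and no treatment, genotype or time course is given. The replicates are therefore cultures of 1 line, and the comparisons are between sites and between replicates, not between conditions. The labels name a possible control experiment, which was not analysed here, and without read counts the depth of each library is unknown.

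The tumour suppressor p53, the product of Trp53, is a transcription factor that is stabilised after DNA damage and other stress. The ubiquitin ligase Mdm2 directs it to the proteasome, and the related protein Mdm4 covers its activation domain. When p53 is released from both, it switches on target genes, among them Mdm2 itself. Of the others, Cdkn1a encodes p21, an inhibitor of cyclin-dependent kinases, Ccng1 encodes cyclin G1, which feeds back on Mdm2, and Trp53inp1 encodes a nuclear protein that acts in cell death and autophagy. Mouse embryonic stem cells contain p53 and cycle rapidly, with a weak checkpoint before DNA replication. POU5F1 binds an octamer, ATGCAAAT, often next to a site for SOX2 in a composite element.

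The mm9 sequence at the centres of 4 sites is shown, 201 bases each, plus strand, 5′ to 3′. They are the Trp53 site in intron 1 and the strongest site within 50 kb of each of Mdm2, Mdm4 and Cdkn1a. Capitals mark the composite element with at most 2 mismatches and the octamer with at most 1 mismatch, on either strand.
Trp53 intron site, chr11:69395468-69395668: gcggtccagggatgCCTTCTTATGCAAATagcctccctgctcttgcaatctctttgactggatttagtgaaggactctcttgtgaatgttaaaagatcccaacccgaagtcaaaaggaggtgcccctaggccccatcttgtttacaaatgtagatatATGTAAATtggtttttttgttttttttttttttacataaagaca
Mdm2 site, chr10:117175810-117176010: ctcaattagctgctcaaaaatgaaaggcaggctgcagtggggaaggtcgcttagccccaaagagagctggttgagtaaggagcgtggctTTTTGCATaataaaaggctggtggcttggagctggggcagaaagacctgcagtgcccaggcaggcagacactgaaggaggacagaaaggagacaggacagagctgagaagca
Mdm4 site, chr1:134877950-134878150: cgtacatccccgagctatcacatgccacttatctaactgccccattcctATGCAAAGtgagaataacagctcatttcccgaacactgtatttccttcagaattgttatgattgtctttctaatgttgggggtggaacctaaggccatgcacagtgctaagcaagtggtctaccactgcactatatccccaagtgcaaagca
Cdkn1a site, chr17:29217948-29218148: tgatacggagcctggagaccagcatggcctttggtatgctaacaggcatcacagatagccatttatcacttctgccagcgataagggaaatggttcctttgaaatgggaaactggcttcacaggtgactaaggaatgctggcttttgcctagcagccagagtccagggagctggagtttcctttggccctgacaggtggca
The long stretch of capitals in the Trp53 sequence is a composite element of the plus strand, CCTTCTTATGCAAAT, at chr11:69395482-69395496. It differs from the consensus at 2 positions, both in its first part, the SOX site. Its second part is an exact octamer whose centre lay 75 bp from the peak centre. No stretch of this window came closer to the SOX site CATTGT than 2 mismatches, a level that 100% of all peaks reached. The shorter stretch, ATGTAAAT, has 1 mismatch. The Mdm2 site holds an octamer with 1 mismatch on the minus strand, ATGCAAAA, 7 bp from the peak centre. The Mdm4 site holds ATGCAAAG, also with 1 mismatch, 47 bp from the centre. The Cdkn1a sequence has no capitals.

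These 4 sequences can be set against the same stretch of all 5515 peaks of the list. An octamer without mismatch was found in 738 of them, or 13.4%, and a composite element with at most 2 mismatches in 513, or 9.3%. Either was present in 19.4% of all peaks and in 1 of the 6 peaks near the pathway genes, the Trp53 intron site. An octamer with up to 1 mismatch, as at Mdm2 and Mdm4, was present in 53.7% of all peaks, so such a match is a frequent one. The fewest mismatches to the composite element were 2 at the Trp53 intron site, 3 at the Mdm4 site and 4 at the Mdm2 and Cdkn1a sites. Of all peaks, 28.6% had 3 or fewer and 58.1% had 4 or fewer.

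Other motifs were searched in the same windows. Most of them were rare in the whole list, so their absence from 6 peaks says little about these peaks. The SOX site CATTGT, in 19.1% of all peaks, was found in the second and weaker peak of Trp53, 15.9 kb upstream of its start. None of the 6 peaks held the MORE palindrome bound by POU5F1 dimers (2.38% of all peaks with at most 1 mismatch), the KLF site CCACACCC (2.43%), the ESRRB site TCAAGGTCA (1.4%) or the STAT site TTCCNGGAA (1.03%). A p53 response element of adjoining half-sites with at most 2 mismatches was present in 1.09% of all peaks and in none of the 6. The closest approach to it was 4 mismatches. The 201-base window of the Trp53 intron site was 39.3% G and C, the lowest of the 6, and the median of all peaks was 46.3%. The windows of the other 5 ran from 45.3% at Mdm4 to 53.2% at both Mdm2 peaks.

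Trp53 itself had the strongest POU5F1 site within 50 kb of any of the 6 genes. On mm9 the peak covered chr11:69395169-69395968, 800 bp, and lay wholly within intron 1, which is 6375 bp long and is shared by 5 annotated transcripts. Its centre was 1661 bp downstream of the nearest Trp53 start, 1551 bp past the end of exon 1 and 4825 bp before the next exon. The start of Wrap53, a gene of the opposite strand that encodes a telomerase-associated protein, lay 1811 bp away. A peak at this place is thus close to both starts and cannot be assigned to 1 of the genes by distance.

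The signal of the Trp53 intron site, a value per peak whose scaling is not stated, was 9.98 in the whole-series list, which placed it at rank 389 of 5515, the top 7.05%. In the list of replicate 1 its signal was 6.84, at rank 665 of 1330, and in that of replicate 2 it was 19.65, at rank 214 of 6324. The replicate peaks were 375 and 630 bp wide, with −log10 p-values of 10.912 and 77.483. The site was therefore called in both replicates, at the median of the shorter list (6.84) and in the top 3.38% of the longer one. Signal levels of different lists are not compared here, because their scale may differ. To put both replicates on 1 set of sites, the 1209 whole-series peaks found in both replicate lists were ranked. The Trp53 site was at rank 623 of these by replicate 1 and at rank 209 by replicate 2. A gap between the ranks of at least that size, 414 places, was found at 233 of the 1209 shared peaks, or 19.3%.

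The width and the −log10 p-value of the Trp53 intron site placed it higher than its signal did. Its −log10 p-value of 74.652 was at rank 97 of the whole-series list, the top 1.76%, where the list's median was 10.9. Its width was at rank 50, the top 0.907%, against a median width of 367 bp. Set against comparable places, it was at rank 134 by signal of the 1823 peaks in introns (7.35%) and at rank 52 of the 711 peaks 1 to 5 kb from a start (7.31%), close to its standing in the whole list. Of all protein-coding genes, 587 of 22225 had a peak of this signal or higher within 50 kb, which is 2.64%. The second Trp53 peak, chr11:69377893-69378122, had a signal of 4.41 at rank 4384, a −log10 p-value of 6.273, and overlapped no peak of either replicate list. It lay 15.9 kb upstream of Trp53 and 0.583 kb from a start of Wrap53.

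On mm10, lists were thresholded by the irreproducible discovery rate (IDR, a measure of how far replicate rankings of peaks match). There, overlapping entries lay downstream of the Trp53 start at chr11:69581827-69582162 and chr11:69582031-69582366. Coordinates were not converted, so the match of these entries to the mm9 intron site rests on distance alone. Their summits were 204 bp apart, 1.64 kb and 1.84 kb downstream of the start. The signal of the first was 83.1, rank 349 of the 3994 peaks of the optimal list, and that of the second 45.0, rank 1363. Both were also in the conservative list of 2676 peaks, at ranks 349 and 1307. Pairs of this kind were not rare, as 305 of the 3994 optimal peaks (7.64%) overlapped another optimal peak. In the relaxed lists, which hold 300000 entries of peaks and background for each replicate, a single entry of each replicate overlapped both. It was at rank 564 in replicate 1, with a signal of 22.9, and at rank 295 in replicate 2, with a signal of 61.0. Ranks at least as high in both replicates were held by 268 of the 3994 optimal peaks, or 6.71%. The pooled relaxed list held 2 entries there, the better at rank 351. The site was thus near the top of both relaxed lists, which have the same length.

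**Figure D1:**
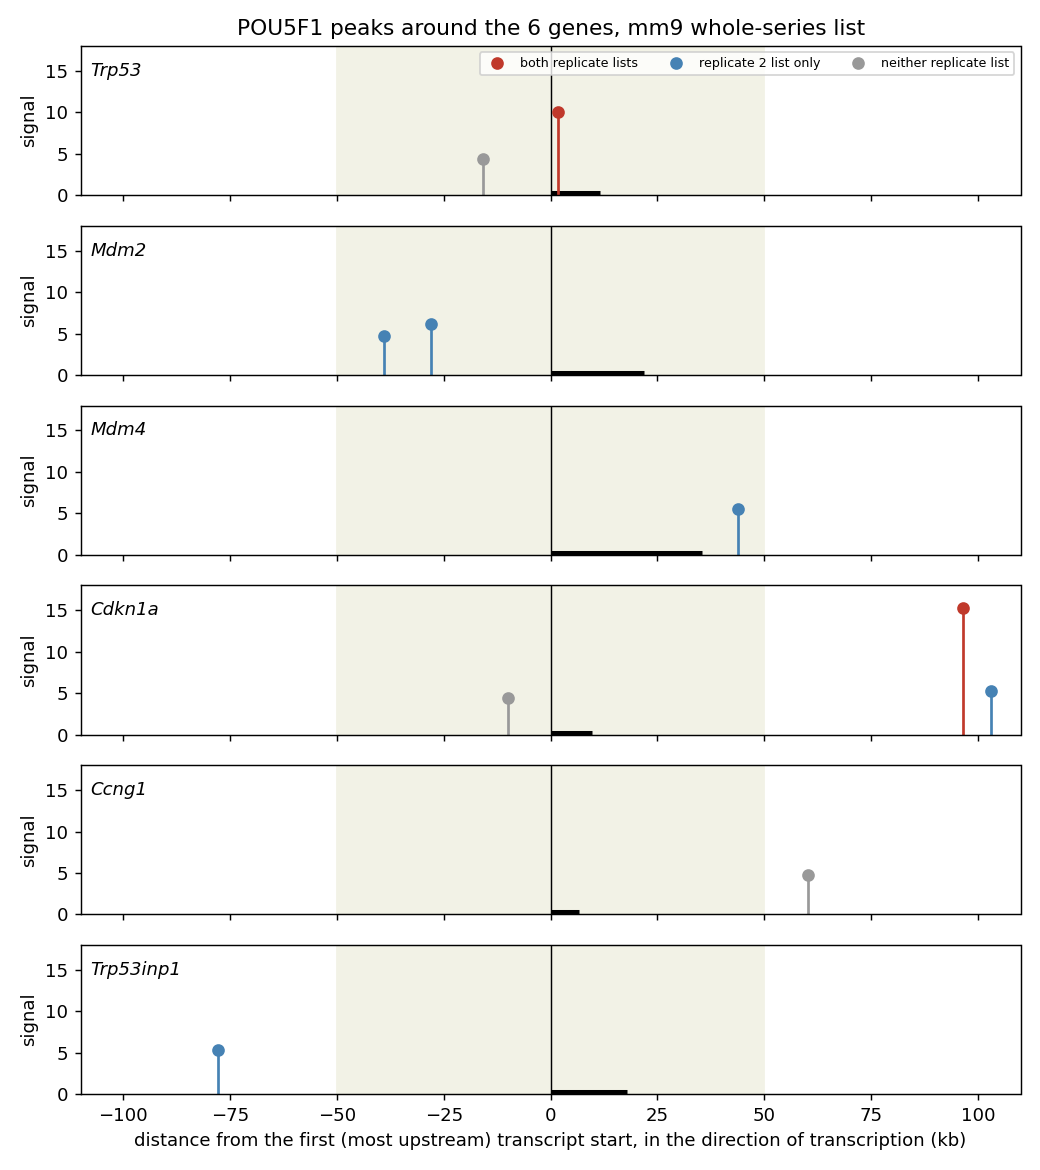
Signal of each whole-series mm9 peak (vertical axis, the authors' value, scaling not stated) against its distance in kb from the most upstream start of each of the 6 genes, in the direction of transcription. The black bar is the gene, the shaded band the 50 kb on each side of that start, and the colour gives the replicate lists that also held the peak. The Trp53 intron peak, signal 9.98, is the only one in the shaded bands that was in both replicate lists.

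Among the negative regulators, Mdm2 had 2 peaks within 50 kb, both upstream of the gene. The stronger, chr10:117175707-117176114, was 28.1 kb upstream of the Mdm2 start, within an intron of Slc35e3, a gene of the solute carrier group whose own start was 7.5 kb away. Its signal was 6.17 in the whole-series list, rank 1872, and 9.83 in replicate 2, rank 1996. The −log10 p-values were 13.541 and 21.167, and replicate 1 had no peak there. The weaker Mdm2 peak, chr10:117186747-117187047, lay 39.1 kb upstream and between genes, 3.48 kb from the start of Slc35e3. Its signal was 4.7 at rank 3836 in the whole-series list and 9.07 at rank 2517 in replicate 2, and again replicate 1 had none. Both Mdm2 peaks were thus nearer to Slc35e3 than to Mdm2 and were called in replicate 2 alone.

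Between builds, sites were matched by distance alone. At the distance of the stronger Mdm2 site, 28.1 kb upstream of the start, the optimal mm10 list held a peak, chr10:117738708-117739043. Its signal was 39.3, rank 1804 of 3994, and it was not in the conservative list. The relaxed list of replicate 2 held it at rank 1484, and that of replicate 1 had no entry at all at this place. The same was true of 272 of the 3994 optimal peaks, or 6.81%, and 40 of these were at a replicate 2 rank at least as high. Whether the site was absent from replicate 1 or below what its depth could show was not tested.

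The other inhibitor, Mdm4, had 1 peak, chr1:134877836-134878265, 43.9 kb downstream of its start and past the end of the gene. Mdm4 was the nearest gene to it. Its signal was 5.58, rank 2471 of the whole-series list and equal to that list's median. In replicate 2 it was 10.58, rank 1622, and the mm9 list of replicate 1 had no peak. The −log10 p-value was 16.479 in the whole series and 19.483 in replicate 2. Neither mm10 list held a peak within 50 kb of Mdm4. Ccng1 had no peak within 50 kb in any of the 5 lists.

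Of the effectors, Cdkn1a had 1 peak within 50 kb, chr17:29217879-29218218, 9.88 kb upstream of its start and between genes, with Cdkn1a the nearest gene. Its signal was 4.41, rank 4384, with a −log10 p-value of 9.457, and it was in neither replicate list. It was absent from both thresholded mm10 lists. Trp53inp1 had no peak within 50 kb in any list. Cdkn1a and Trp53inp1 thus had no site within 50 kb in either mm9 replicate list. Of all genes, 8.16% had one in replicate 1 and 30.1% in replicate 2, so in each list most genes had none. The relaxed mm10 list of replicate 2, which also holds background, had its strongest Cdkn1a entry 9.84 kb upstream, at rank 2876. Coordinates were not converted, so its match to the mm9 peak at 9.88 kb rests on distance alone.

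**Figure D2:**
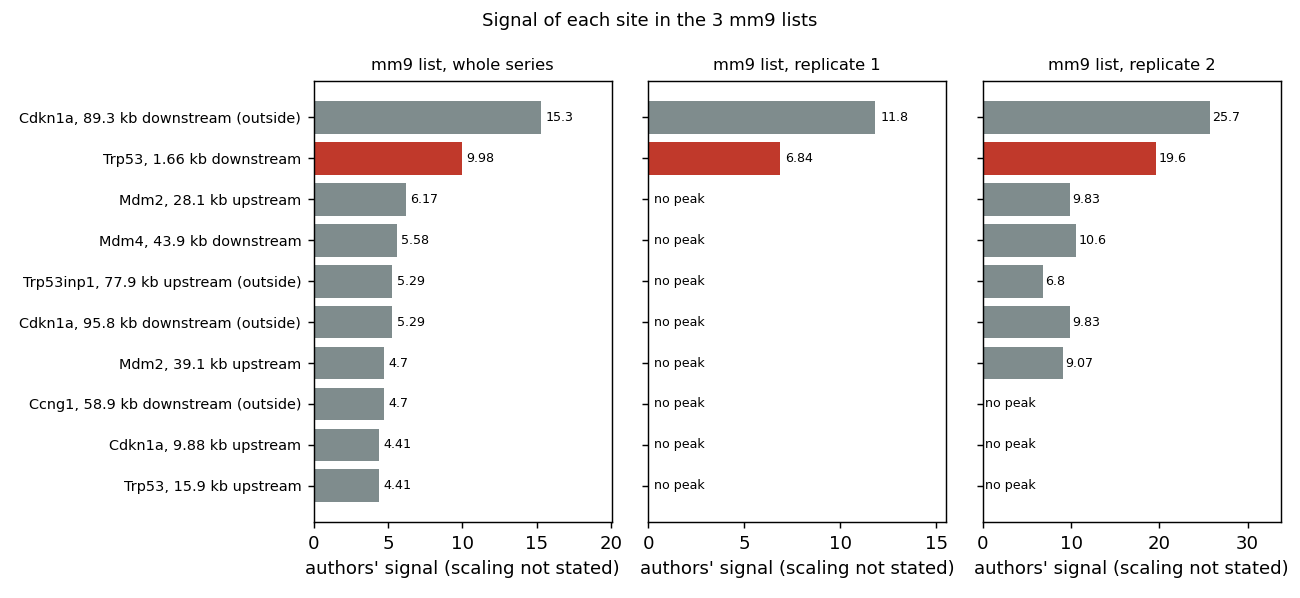
Signal of 10 sites near the 6 genes (horizontal axis, the authors' value, scaling not stated) in the mm9 lists of the whole series, replicate 1 and replicate 2, 1 panel each with its own scale; each bar is 1 deposited peak and sites marked outside lie 50 to 100 kb from a start. The Trp53 site at 1.66 kb (red) and the Cdkn1a site at 89.3 kb have a bar in all 3 panels, and the others have none in the replicate 1 panel.

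The choice of 50 kb decided which sites were counted. The farthest site inside was the Mdm4 peak at 43.9 kb. The nearest outside was a peak 58.9 kb downstream of the Ccng1 start, chr11:40508342-40508650, with a signal of 4.7. It lay 0.007 kb from the start of Mat2b, which encodes a subunit of methionine adenosyltransferase, and was in neither mm9 replicate list. On mm10 the optimal and conservative lists both held a peak 60.3 kb downstream of the Ccng1 start, chr11:40694793-40695128. It was 2.28 kb from a Mat2b start, with a signal of 29.9 and relaxed ranks of 3944 and 5932 in the replicates. The mm9 peak was also 60.3 kb from the most upstream Ccng1 start, and the match rests on that distance alone. Trp53inp1 had its nearest peak 77.9 kb upstream, chr4:11005479-11005813, with a signal of 5.29 in the whole series and 6.8 in replicate 2. It was 2.29 kb from the start of another gene, 2310030N02Rik. The optimal and conservative mm10 lists held a peak at the same distance, chr4:11078347-11078682, with a signal of 40.8 and relaxed ranks of 4446 and 2369. Its match to the mm9 peak rests on distance alone.

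The strongest peak within 100 kb of any of the 6 genes was not the Trp53 site. It was chr17:29324026-29324831, in an intron of Cpne5, which encodes a calcium-dependent membrane-binding copine, 89.3 kb downstream of the nearest Cdkn1a start. Its signal was 15.27 in the whole series, 11.82 in replicate 1 and 25.7 in replicate 2, and its ranks in these lists were 73, 71 and 79. It was above the Trp53 intron site in all 3 lists. The optimal mm10 list held a peak with a signal of 139 at rank 83, chr17:29187305-29187468, 93.6 kb from Cdkn1a, and its relaxed ranks were 244 in replicate 1 and 66 in replicate 2. A weaker peak 95.8 kb from Cdkn1a, also in an intron of Cpne5, had a signal of 5.29.

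In all, 4 of the 6 genes had a whole-series mm9 peak within 50 kb, 66.7% with an exact 95% interval of 22.3% to 95.7%. The share of all protein-coding genes was 27.3%, or 6064 of 22225. The list of replicate 1 gave 1 of 6 genes against 8.16% of all, and that of replicate 2 gave 3 of 6 against 30.1%. On mm10 the optimal list gave 2 of 6 against 19.2% of 21142 genes, and the conservative list 1 of 6 against 13.5%. Most of the 6 genes had fewer starts on mm10, such as 1 in place of 5 for Trp53 and 1 in place of 8 for Mdm2. The mm9 and mm10 counts are therefore not over the same windows. Within 10 kb, Trp53 and Cdkn1a were the 2 of 6 genes with a whole-series peak, against 8.66% of all. With 6 genes chosen by name, these counts are a description and set no rate for the pathway. Trp53 and Mdm2 each had 2 peaks within 50 kb, which held for 1355 of all genes, or 6.1%, with 2 or more.

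By replicate, 1 of the 6 peaks was in both mm9 lists, 3 were in that of replicate 2 alone and 2 were in neither. Of all 5515 whole-series peaks, 1209 (21.9%) were in both, 3575 (64.8%) in replicate 2 alone, 44 (0.798%) in replicate 1 alone and 687 (12.5%) in neither. The median signal of these classes was 8.63 for peaks in both lists, 5.29 for replicate 2 alone and 4.41 for neither. Among the peaks of the 6 genes, the signal was 9.98 for the shared peak, 4.7 to 6.17 for the 3 of replicate 2 alone and 4.41 for both in neither list. A signal at least as high as that of the strongest site within 50 kb was found near 2686 genes (12.1%) for Mdm2, 3525 (15.9%) for Mdm4 and 5510 (24.8%) for Cdkn1a.

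The relaxed mm10 lists, which reach far below the threshold, gave a rank for all 6 genes in each replicate. The strongest entry within 50 kb of Trp53 was at rank 564 in replicate 1 and at rank 295 in replicate 2, and 3.4% and 1.73% of genes had an entry of higher rank. Cdkn1a was at ranks 5016 and 2876, with 26.6% and 14.9% of genes ahead of it. The Cdkn1a entries were different sites, 17.4 kb upstream in replicate 1 and 9.84 kb upstream in replicate 2. Only Trp53 had the same entry as its strongest in both replicates, which was the case for 2854 of 19971 genes with an entry in both, or 14.3%.

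The other 4 genes stood lower than Cdkn1a in replicate 1, but in replicate 2 Mdm2 stood above it. Mdm2 was at rank 62265 in replicate 1, with an entry 3.06 kb downstream of a start, and at rank 1484 in replicate 2, with the site 28.1 kb upstream. Trp53inp1 was at ranks 57310 and 3600, with entries 46.6 kb and 33.7 kb upstream. For these 2 genes, 89.9% and 88.8% of all genes stood higher in replicate 1, but 8.46% and 18.3% in replicate 2. Mdm4 was at ranks 17649 and 4476 and Ccng1 at ranks 21539 and 8942. The median over all genes was rank 12255 in replicate 1 and 12378 in replicate 2, so Ccng1, Mdm4, Mdm2 and Trp53inp1 were below the median in replicate 1 and above it in replicate 2. The best Mdm4 entry of replicate 2 was 0.006 kb from a start, with a signal of 16.3. That of replicate 1 was 44.0 kb downstream, and so was that of the pooled list. The mm9 peak of Mdm4, called in replicate 2 alone, lay at a like distance, 43.9 kb downstream. In the pooled relaxed list the ranks were 351 for Trp53, 1831 for Mdm2, 3785 for Cdkn1a, 9281 for Trp53inp1, 12886 for Mdm4 and 16253 for Ccng1. The shares of genes ahead of them there ran from 2.01% for Trp53 to 58.9% for Ccng1, and the median rank over all genes was 12109.

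**Figure D3:**
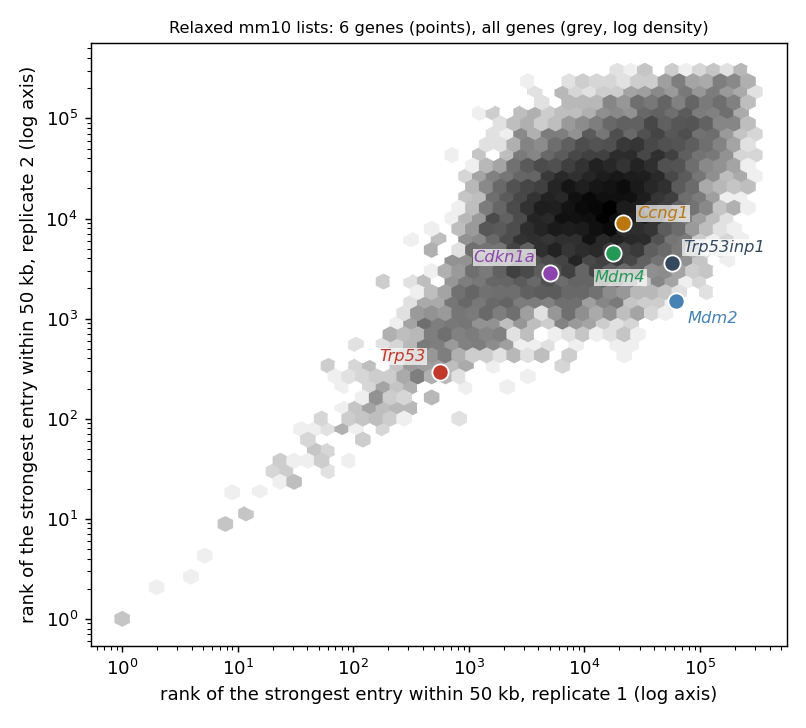
Rank of the strongest relaxed mm10 entry within 50 kb of each gene in replicate 1 (horizontal, log axis) and replicate 2 (vertical, log axis); points are the 6 genes and grey hexagons all protein-coding genes with an entry in both, darker where there are more (log density). Trp53, at ranks 564 and 295, is in the lower left, and Mdm2 and Trp53inp1 are far to the right of it, with replicate 1 ranks of 62265 and 57310.

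The wider pathway was read from a list of 64 genes in 6 functional groups, all of which were matched, 3 of them through an older symbol. Leaving out the 6 genes above, 15 of 58 had a whole-series peak within 50 kb, 25.9% with an exact interval of 15.3% to 39.0%, beside the 27.3% of all genes. Within 10 kb, 7 of 58 (12.1%) had one, beside 8.66%. In the list of replicate 1 the count was 6 of 58 (10.3%), in that of replicate 2 21 of 58 (36.2%) and in the optimal mm10 list 10 of 58 (17.2%). The exact intervals were 3.89% to 21.2%, 24.0% to 49.9% and 8.59% to 29.4%. The shares of all genes in the same lists were 8.16%, 30.1% and 19.2%. The 58 genes were chosen by name and are no random draw, so a difference from the background was not tested. The median signal of the strongest peaks of the 15 genes was 6.46, with a range of 4.27 to 11.22, beside 5.87 for all genes near a peak.

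By function, 3 of 9 upstream kinases and cofactors had a whole-series peak within 50 kb, and so did 3 of 7 negative regulators, 1 of 2 relatives of Trp53, 3 of 10 arrest genes and 5 of 15 apoptosis genes. The share of all genes in this list was 27.3%, and the exact intervals of these groups all held it. None of the 15 genes of repair and metabolism had such a peak, with an exact upper limit of 21.8%. These genes were chosen by name, and a difference from 27.3% was not tested. The list of replicate 2 held a peak near 4 of those 15, beside 30.1% of all genes. The optimal mm10 list held one near 2, beside 19.2%, so the 0 belongs to the whole-series list. Among the activators of p53, the kinase gene Hipk2 had a peak of signal 11.22, rank 252, 12.7 kb downstream of its start in its own intron, with 9.32 in replicate 1 and 17.43 in replicate 2. The gene of the DNA damage mediator Trp53bp1 had one of 10.87, rank 280, 395 bp upstream of its start at chr2:121096173-121096661, with 11.2 and 18.14 in the replicates. These were the 2 of the 15 with a signal above that of the Trp53 intron site. Of all 6064 genes with a whole-series peak within 50 kb, 587 had one at least as strong as that site. Within 50 kb, the optimal mm10 list held 0 peaks for Hipk2, 1 for Trp53bp1 and 2 for Trp53. A weaker peak of Prkdc, a DNA damage kinase, was 38.4 kb upstream and nearer to Ube2v2, with a signal of 5.29.

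The next genes all had their strongest peak in both replicate lists. Pmaip1, which encodes the cell death protein Noxa, had one 43.6 kb upstream with a signal of 8.22. Gadd45g, an arrest gene, had one 642 bp upstream of its start with 7.34. Sirt1, whose product deacetylates p53, had one 15.4 kb downstream of its start, in its own intron, with 7.05. With Hipk2 and Trp53bp1 these made 5 of the 15. Of all whole-series peaks, not only the strongest near a gene, 21.9% were in both lists. Within 50 kb, the optimal mm10 list held 1 peak each for Pmaip1 and Gadd45g and 0 for Sirt1.

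The other strongest peaks were in replicate 2 alone or in neither list. Usp7, the enzyme that removes ubiquitin from p53 and Mdm2, had 5 peaks within 50 kb. The strongest, 7.34, was 46.7 kb upstream, in an intron of 1810013L24Rik, whose start was nearer at 8.91 kb. The nearest, 6.17, was 1381 bp upstream of the closest Usp7 start and within an intron of Usp7. The ligase gene Rchy1 had a peak of 7.05, 7.93 kb downstream. The arrest genes Gadd45a and Ccng2 had peaks of 6.46 at 29.4 kb downstream, in an intron of Gng12, and 4.7 at 76 bp from the start. The last of these was a promoter peak called in replicate 2 with a signal of 7.56. The p53 relative Trp73 had a peak of 4.41, 3.18 kb downstream in its own intron. Among the apoptosis genes, Ei24 had one of 5.87 in its own intron, 2.37 kb from the start. The peaks assigned to Aen (4.99), Bbc3 (4.7) and Siah1a (4.27) were 40.6, 44.5 and 29.7 kb upstream, and those of Aen and Bbc3 were nearest to Det1 and C5ar1. In 11 of the 15 cases the pathway gene was the gene nearest to the peak. That share was not taken over the strongest peaks of all genes, so the count is a description.

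**Figure D4:**
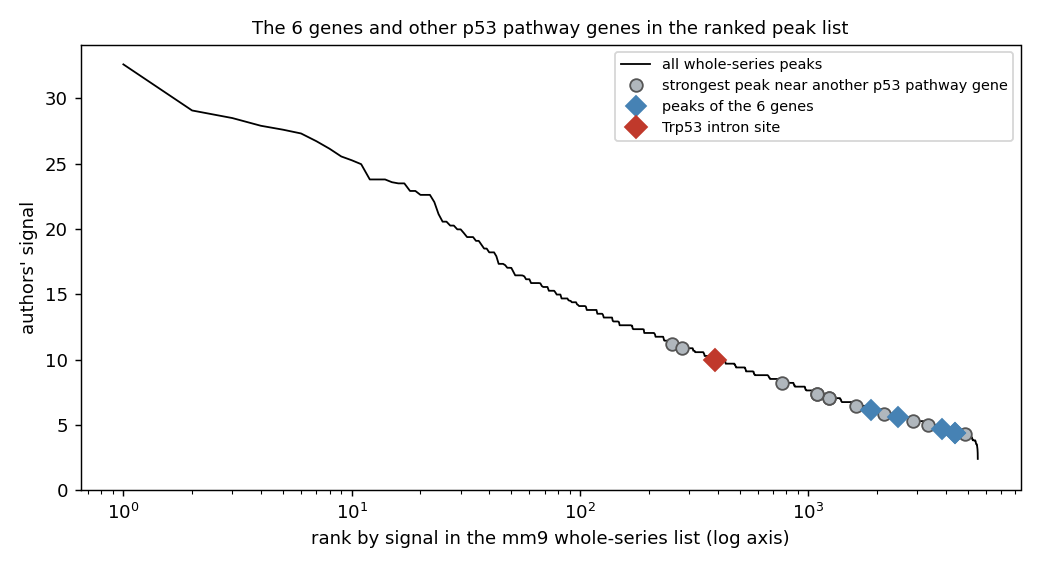
Signal of all 5515 whole-series mm9 peaks (vertical axis, the authors' value) in order of rank (horizontal, log axis); diamonds are the 6 peaks of Trp53, Mdm2, Mdm4 and Cdkn1a, with the Trp53 intron site in red, and circles the strongest peaks of the other pathway genes. The Trp53 intron site lies at rank 389 with the other 5 diamonds at rank 1872 or lower, and 2 circles lie to its left.

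For scale, peaks at genes of the pluripotency network were stronger or of like signal. The site at Pou5f1 had a signal of 27.9, rank 4 of the whole-series list, that at Sox2 19.09, rank 35, and that at Nanog 9.96, rank 430. The Trp53 intron site, at 9.98, was level with the Nanog site in the whole-series list. In replicate 1 the Nanog site had 9.44 and the Trp53 site 6.84, and in replicate 2 they had 16.49 and 19.65. Their order was thus opposite in the replicates, and the data do not rank the pair.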

How the data were processed

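The authors deposited peak lists from 2 POU5F1 ChIP-seq libraries, and the builds mm9 and mm10 are per the labels. The programs for alignment and peak calling, the IDR cutoff and the way the mm9 whole-series list joins the replicates are not given in the sources used here. The signal per peak is as deposited by the authors, with its scaling not stated. On mm9 each deposited peak has a −log10 p-value and a q-value. On mm10 each deposited peak has a −log10 q and, after IDR, a score. Only signal, −log10 p-value and position were used.

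Peaks were joined to transcript starts of protein-coding genes (GENCODE M1 on NCBIM37, which is mm9; for mm10, RefSeq GRCm38.p6 starts, 17492 genes from promoter entries and 3650 from gene entries) when the peak centre lay within 50 kb. Coordinates were not converted, and mm10 sequence was not used. Presence in a replicate list was an overlap of at least 1 bp. Motifs were searched on both strands within 100 bp of the centre, and an octamer within a composite element counts as both. Ranks give ties the same, best rank. Intervals are 95% Clopper-Pearson intervals and cover counting error only. With 1 group there was no test. Programs were Python 3.11.15, numpy 2.4.6, pandas 2.3.3 and scipy 1.17.1, tested on simulated peaks.

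The members and gene lists were chosen with earlier results of these data known. Pathway genes were named when they had a whole-series peak within 10 kb, with up to 10 others by signal. Alternatives varied the window, the peak threshold, the list, the gene assignment, the overlap, the motif settings and the ranking.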

Additional observations from a re-analysis of the deposited data

How the results depend on the processing

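Of the 6 genes, the 4 with a whole-series peak within 50 kb became 2 at 10 kb, 6 at 100 kb, 3 with −log10 p of at least 10 and 3 with the nearest start alone, and 1 to 3 with 1 replicate list. The background share of 27.3% became 8.66%, 43.3%, 16.6% and 13.5%, and 8.16% to 30.1%. The 19 of 64 pathway genes became 9, 32 and 12 for the first 3 settings, and 7 to 24. The 6 peaks became 2, 10 and 3, and 1 to 4. The 2 genes near an mm10 optimal peak became 1 in the conservative list, 1 at 10 kb and 5 at 100 kb. With a reciprocal overlap of 50%, 0 of the peaks were in both replicate lists, in place of 1, and with centres within 100 bp it was 1. The Trp53 intron peak is 800 bp wide and its replicate 1 peak 375 bp. With 3 mismatches in the composite element, 2 peaks held it or the octamer in place of 1. The Trp53 site, rank 389 by signal, was at rank 97 by −log10 p and at ranks 214 to 665 in the replicate lists. Other alternatives moved no value by over 1.5 times. No paired analysis was possible because the samples form 1 group. Absence from a list may reflect depth, which is unknown.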
